A study of Mus musculus with 4 samples.

Results

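The chemokine receptor genes Ccr2, Ccr4, Cxcr3, Cxcr4 and Cxcr6 were followed in single CD4 T cells of mesenteric lymph nodes (mLN), the nodes that drain the gut. These 5 members were picked by name out of 13314 genes measured, and all 5 had counts in every library. There were 4 groups of male mice with 1 library each, giving 5406 analysed cells for colonized Foxp3CNS1-, 3533 for germ-free Foxp3CNS1-, 4030 for colonized Foxp3GFP and 3979 for germ-free Foxp3GFP. Foxp3CNS1- mice lack CNS1, an enhancer inside an intron of Foxp3 that takes part in making regulatory T (Treg) cells outside the thymus. Foxp3GFP mice, in which green fluorescent protein (GFP) reports Foxp3, carry an intact CNS1. Colonized mice had been given fecal microbes from specific-pathogen-free donors 9 days earlier, and germ-free mice had received none. Every library pooled cells of 3 mice, and the cells were sorted to be 50% GFP-positive and 50% GFP-negative, so a share of Treg cells in a library was set by the sort. The sources used here give no age for the mice.

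Chemokine receptors are membrane proteins that couple to Gi proteins and steer cells along gradients of chemokines. CCR2 binds CCL2 and related monocyte-attracting chemokines and is found on effector and memory T cells and on monocytes. CCR4 binds CCL17 and CCL22, made largely by dendritic cells, and is known from Th2 and Treg cells. CXCR3 binds the interferon-induced CXCL9, CXCL10 and CXCL11 and is a target of T-bet in Th1 cells. CXCR4 binds CXCL12, which holds cells in bone marrow and lymphoid tissue. CXCR6 binds CXCL16 and marks T cells that reside in tissues such as gut and liver. Naive T cells carry CCR7, which brings them into lymph nodes, and effector cells replace it with receptors for inflamed or barrier tissue.

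A single library stood for each group, so comparisons between groups had no replicate and no test was made. For them the text gives the ratio of CPM, the counts of unique molecular identifiers (UMIs) divided by all UMIs of the cells named and multiplied by 1e6, with an exact 95% interval, which covers counting error only. Group, pool of mice and library cannot be told apart. Libraries held 9360112 to 17929193 UMIs, with medians of 2286 to 2832 UMIs a cell, and 314 of 16948 analysed cells shared a barcode with a cell of another library. The CD4 T markers Cd3e, Cd3d, Cd3g, Cd4, Trac and Trbc2 were all detected and summed to 6668 CPM, against 48.5 CPM for CD8 T or NK markers, 22.4 CPM for myeloid or dendritic markers and 808 CPM for B or plasma cell markers. Levels were not compared between genes, because the files hold 3′ counts with no value per length.

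All members but Cxcr3 and Cxcr4 lie on mouse chromosome 9 in the GRCm38 (mm10) build. Cxcr6 (chr9:123806475-123811760, plus strand) and Ccr2 (chr9:124101950-124113557, plus strand) lie in the same locus of chemokine receptor genes, and Ccr4 (chr9:114490316-114504916, minus strand) lies farther up the chromosome. Cxcr3 is at chrX:101731535-101734269 and Cxcr4 at chr1:128588199-128592293, both on the minus strand. Cxcr6 lies inside an intron of Fyco1, which runs on the other strand, and no exon of either gene overlaps the other. The sources used here do not say whether counting used strand. The DNA just upstream of 2 members is shown because their RNA differed by at least 1.5-fold between the genotypes in germ-free mice, and it is credited to RefSeq (GRCm38.p6). It is written 5′ to 3′ in the direction of the gene and ends at the gene start in the coordinates above.
Cxcr6, chr9:123806227-123806474, plus strand: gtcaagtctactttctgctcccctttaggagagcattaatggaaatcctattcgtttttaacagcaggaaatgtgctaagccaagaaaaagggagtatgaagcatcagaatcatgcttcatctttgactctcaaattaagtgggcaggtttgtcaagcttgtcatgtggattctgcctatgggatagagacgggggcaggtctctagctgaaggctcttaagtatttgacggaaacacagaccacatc
Cxcr3, chrX:101734270-101734397, minus strand: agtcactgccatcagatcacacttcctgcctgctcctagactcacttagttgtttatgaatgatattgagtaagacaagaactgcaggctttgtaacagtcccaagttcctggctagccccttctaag
No letters are capitalised, because none of 3 motifs searched on both strands was found. These were the STAT motif GAS (TTCNNNGAA), the interferon-response core (GAAA, any 2 bases, GAAA) and the T-box motif (TCACACC), searched for each member in the 250 bases before its RefSeq start. Of 32851 mouse windows of that length, 7.02%, 2.98% and 3.33% hold them. RefSeq starts differ from the gene coordinates above, so that 233 bases of the Ccr2 window, 250 of Ccr4, 122 of Cxcr3, 2 of Cxcr6 and 0 of Cxcr4 lie inside the gene. Those bases were searched but are not printed. The share of G and C was 43.5% for the Cxcr6 stretch and 45.3% for the Cxcr3 stretch, and 52.4% was the median over all windows.

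Ccr2 differed most among the members between colonized and germ-free mice. Summed over all analysed cells it had 608 UMIs in colonized Foxp3CNS1- against 42 in germ-free Foxp3CNS1-, and 494 in colonized Foxp3GFP against 43 in germ-free Foxp3GFP. These counts are 33.9 CPM in colonized and 4.49 in germ-free Foxp3CNS1- mice, and 36.8 in colonized and 4.0 in germ-free Foxp3GFP mice. Both colonized libraries were far above both germ-free libraries, and the genotypes lay close together in either state. The log2 ratio of colonized over germ-free was 2.92 (2.47 to 3.41) in Foxp3CNS1-, or 7.56-fold, and 3.20 (2.75 to 3.68) in Foxp3GFP, or 9.19-fold. Among genes whose UMIs in both libraries came to at least 50, ordered from the highest ratio, Ccr2 had rank 25 of 10204 in Foxp3CNS1- and rank 23 of 9990 in Foxp3GFP. In a sum over cells, fewer cells of a type and less RNA per cell cannot be told apart. The share of cells with a UMI was counted too. Less RNA per cell also lowers that share, with or without thinning, so it does not separate them either. A Ccr2 UMI was found in 4.79% of colonized against 0.736% of germ-free Foxp3CNS1- cells, and in 4.81% of colonized against 0.804% of germ-free Foxp3GFP cells. With each cell thinned to 1500 UMIs the shares were 2.95% in colonized against 0.382% in germ-free Foxp3CNS1- and 2.73% in colonized against 0.482% in germ-free Foxp3GFP cells. Thinning left out 261 colonized and 391 germ-free Foxp3CNS1- cells, and 181 colonized and 452 germ-free Foxp3GFP cells. Naive-like cells of clusters 1 and 2, which should lack the gene, had a Ccr2 UMI in 0.145%, 0.0903%, 0.369% and 0% of cells of colonized Foxp3CNS1-, germ-free Foxp3CNS1-, colonized Foxp3GFP and germ-free Foxp3GFP, at medians of 2494 to 2856 UMIs. The last share is 0 of 1495 cells, which allows up to 0.201%. Monocytes also carry CCR2, so myeloid or dendritic markers were counted in the same cells. Of 8 listed, Itgax, Csf1r and Clec9a were not measured, so cells marked only by those could not be found. The 5 measured were Lyz2, Cd68, Fcer1g, Tyrobp and Itgam. A UMI of any of them was present in 1.89% of colonized against 1.42% of germ-free Foxp3CNS1- cells, and in 1.36% of colonized against 1.13% of germ-free Foxp3GFP cells. Without those cells Ccr2 was at 32.8 CPM in colonized against 4.59 in germ-free Foxp3CNS1- mice, and 35.9 in colonized against 3.97 in germ-free Foxp3GFP mice.

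**Figure D1:**
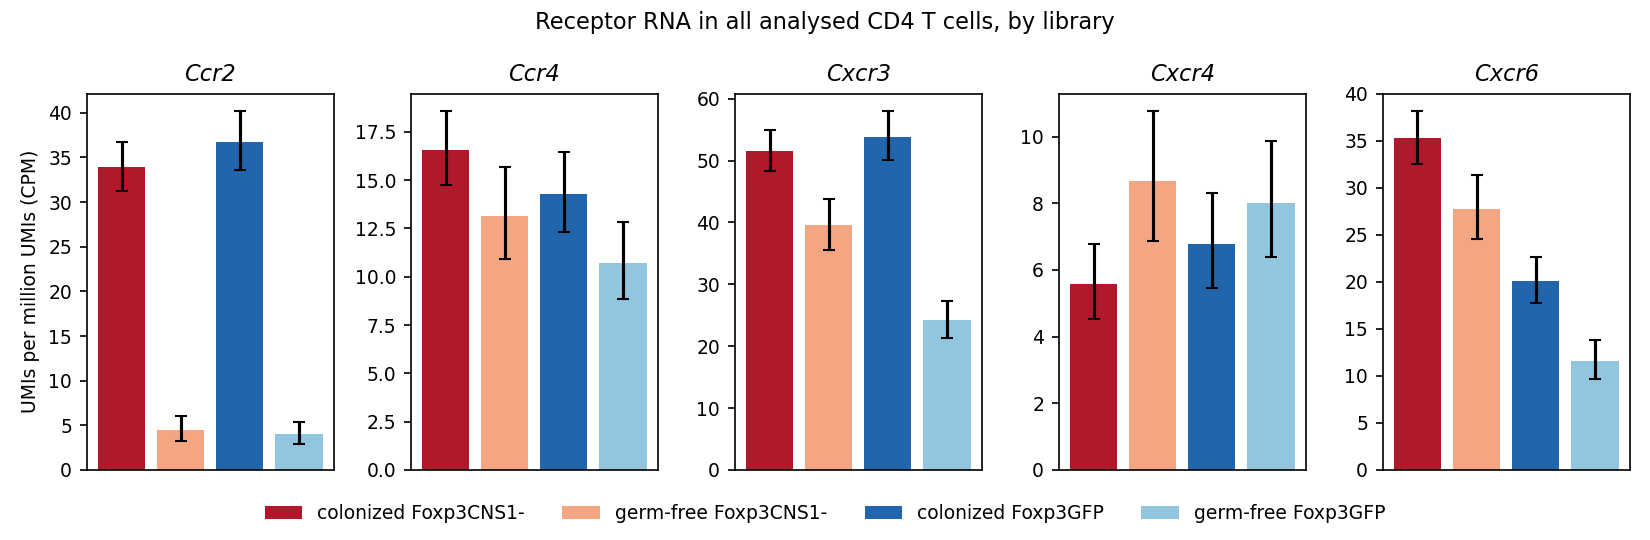
CPM of each receptor over all analysed cells of the 4 libraries, with exact 95% counting intervals as bars. Ccr2 stood at 33.9 and 36.8 CPM in the colonized libraries and at 4.49 and 4.0 CPM in the germ-free ones, while Cxcr6 was highest in both Foxp3CNS1- libraries.

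Cxcr6 differed between the genotypes more than any other member. It had 35.2 CPM in the colonized Foxp3CNS1- library, 27.8 in the germ-free Foxp3CNS1- library, 20.1 in the colonized Foxp3GFP library and 11.6 in the germ-free Foxp3GFP library. Each Foxp3CNS1- library was above the Foxp3GFP library of the same colonization state. The log2 ratio of Foxp3CNS1- over Foxp3GFP was 1.26 (0.94 to 1.58) in germ-free mice, with rank 22 of 9774, and 0.81 (0.60 to 1.02) in colonized mice, with rank 77 of 10336. Colonized over germ-free it was 0.34 (0.13 to 0.56) in Foxp3CNS1- and 0.79 (0.48 to 1.11) in Foxp3GFP. Cells with a Cxcr6 UMI made up 4.31% of colonized against 4.53% of germ-free Foxp3CNS1- cells, and 2.85% of colonized against 1.91% of germ-free Foxp3GFP cells. In Foxp3CNS1- mice the share of cells with a UMI was lower and the summed level higher in the colonized library.

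Cxcr3 had 51.5 CPM in the colonized Foxp3CNS1- library, 39.5 in the germ-free Foxp3CNS1- library, 53.9 in the colonized Foxp3GFP library and 24.2 in the germ-free Foxp3GFP library. It was lowest in germ-free Foxp3GFP mice and highest in the colonized libraries. Its log2 ratio of colonized over germ-free was 0.38 (0.21 to 0.56) in Foxp3CNS1- and 1.16 (0.95 to 1.37) in Foxp3GFP. Between genotypes it was 0.71 (0.48 to 0.94) in germ-free mice and -0.064 (-0.21 to 0.078) in colonized mice, where the interval holds 0.

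Ccr4 varied little, with 16.6 CPM in the colonized Foxp3CNS1- library, 13.1 in the germ-free Foxp3CNS1- library, 14.3 in the colonized Foxp3GFP library and 10.7 in the germ-free Foxp3GFP library. The colonization ratio was 0.33 (0.026 to 0.65) in Foxp3CNS1- and 0.42 (0.076 to 0.76) in Foxp3GFP, and the genotype ratio 0.30 (-0.082 to 0.68) for germ-free and 0.21 (-0.053 to 0.48) in colonized mice. Cxcr4 went the other way from the rest, with 5.58 CPM in the colonized Foxp3CNS1- library, 8.65 in the germ-free Foxp3CNS1- library, 6.77 in the colonized Foxp3GFP library and 8.00 in the germ-free Foxp3GFP library. Its colonization ratio was -0.63 (-1.07 to -0.19) in Foxp3CNS1- and -0.24 (-0.68 to 0.20) in Foxp3GFP, where the interval holds 0. The genotype ratio of Cxcr4 was 0.11 (-0.34 to 0.57) for germ-free and -0.28 (-0.70 to 0.15) in colonized mice, and both intervals hold 0.

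Against a threshold of 1.5-fold, colonization in Foxp3CNS1- put 1 of 5 members higher (Ccr2) and 1 lower (Cxcr4), where 3.8% of all genes with at least 50 UMIs were higher and 4.69% lower. In Foxp3GFP mice 3 of 5 were higher (Ccr2, Cxcr3 and Cxcr6) and 0 lower, against 4.65% and 3.97% of genes. The Foxp3CNS1- genotype had 2 of 5 higher in germ-free mice (Cxcr3 and Cxcr6) and 0 lower, against 2.92% and 1.24%. In colonized mice 1 of 5 was higher (Cxcr6) and 0 lower, against 1.77% and 1.27%. These 4 comparisons share libraries with each other. With the share of each cluster held equal across libraries, the genotype ratio was 0.32 for Cxcr3 in germ-free mice and 0.50 for Cxcr6 in colonized mice, both under 1.5-fold. The colonization ratio in Foxp3CNS1- was then 0.053 for Cxcr6 and -0.028 for Ccr4. That of Ccr2 in Foxp3GFP was still 2.66.

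**Figure D2:**
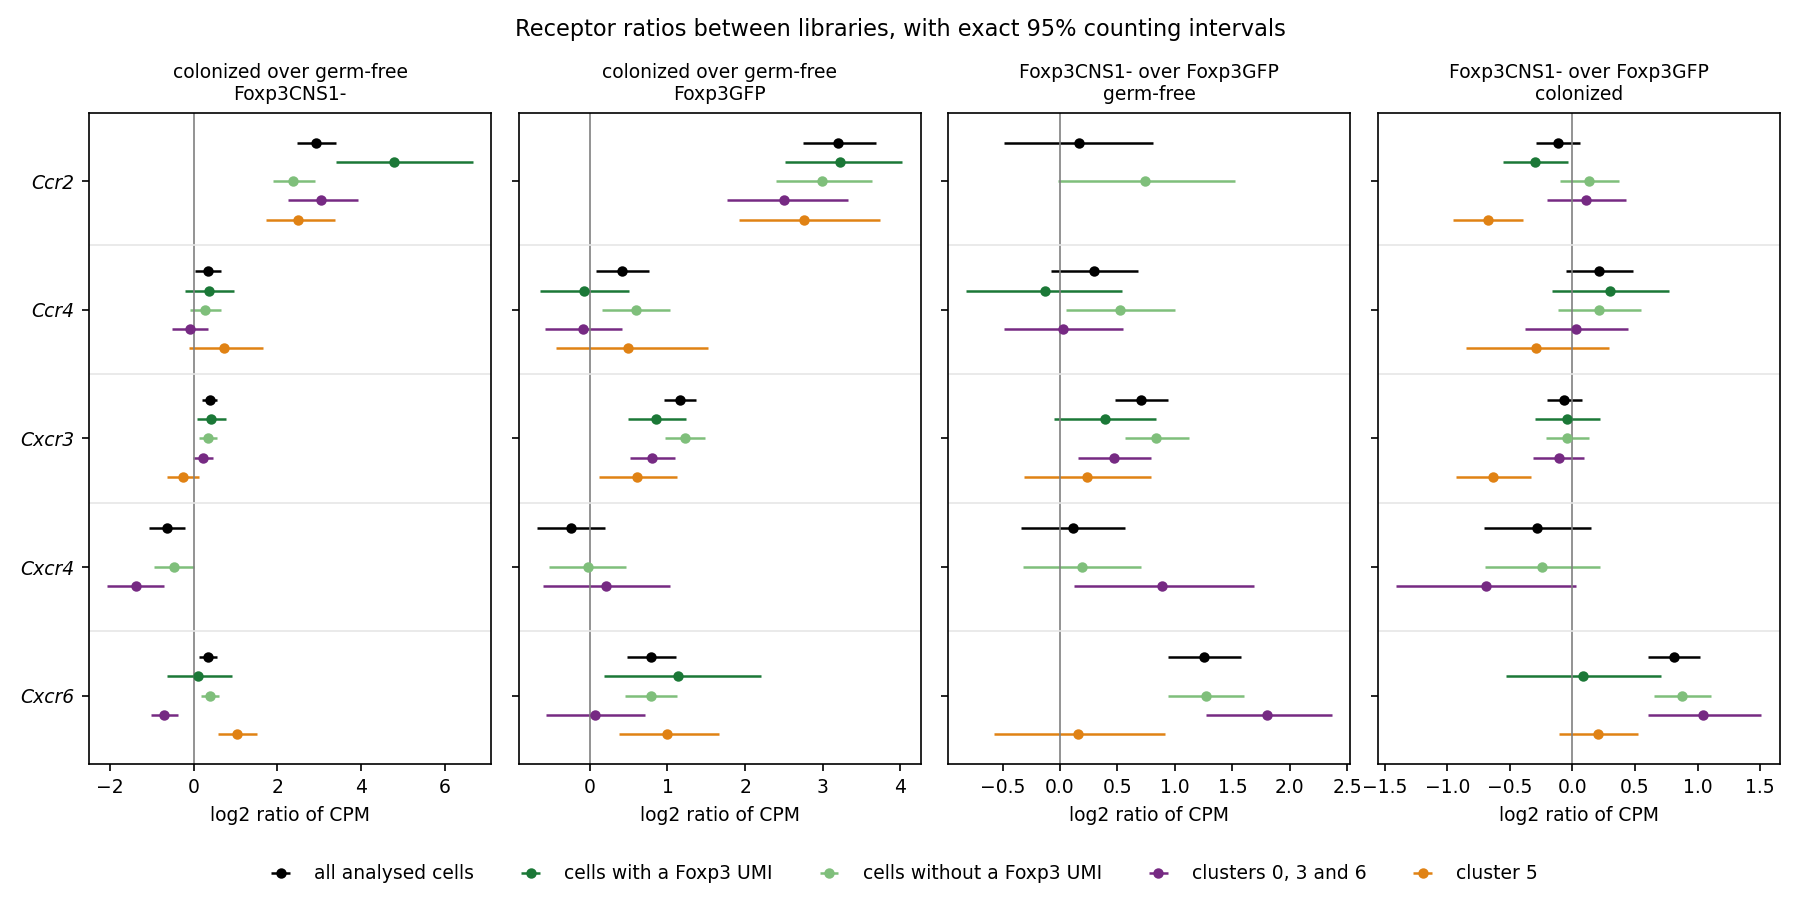
Log2 ratio of each receptor with its exact 95% interval, for colonized over germ-free in each genotype and for Foxp3CNS1- over Foxp3GFP in each state, in all analysed cells and in cell classes. Ratios with under 50 UMIs are not drawn. In the classes drawn, Ccr2 lies between 2.38 and 4.78 for colonization, and Cxcr6 in clusters 0, 3 and 6 is at 1.80 for the genotype in germ-free mice.

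The authors' clustering split the cells into clusters numbered 0 to 9, and these levels are descriptions, since the clusters were built from the same genes. Clusters 0, 3 and 6 carried the Treg markers at 3806, 6586 and 3986 CPM in sum, against 551 and 915 CPM in the naive-like clusters 1 and 2. Clusters 4, 5, 7, 8 and 9 lay between, at 2421, 2643, 2325, 2319 and 2895 CPM. Cluster 5, with 1693 cells, is led by S100a4, Ccr2 and S100a6, so Ccr2 is one of the genes that define it. It held 39.8% of all Ccr2 UMIs and 38.7% of all Cxcr6 UMIs with 10.4% of all UMIs. Clusters 1 and 2 held 0.758% of Ccr2 and 3.11% of Cxcr6 UMIs with 29.4% of all UMIs.

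In cluster 5 Ccr2 had 94.9 CPM in colonized and 16.8 in germ-free Foxp3CNS1- mice, and 152 in colonized and 22.4 in germ-free Foxp3GFP mice. Cluster 5 was the highest cluster for Ccr2 in 3 libraries, and cluster 7 was highest in germ-free Foxp3CNS1- mice with 24.4 CPM. Cluster 3 had 56.3 CPM in colonized and 1.34 in germ-free Foxp3CNS1- mice, and 82.5 in colonized and 16.1 in germ-free Foxp3GFP mice. Over the 4 libraries Ccr2 averaged 71.5 ± 64.2 CPM in cluster 5, 50.0 ± 43.8 in cluster 7, 39.1 ± 37.1 in cluster 3, 22 ± 21.1 in the proliferating cluster 8 and 15 ± 11.6 in cluster 0 (SD, n = 4 libraries of different groups). Ranges over libraries overlap between all neighbours in that order. Within clusters the colonized library was the higher one in 9 of 10 clusters in Foxp3CNS1- and 8 of 10 in Foxp3GFP, and in the remaining clusters Ccr2 was at 0 in both libraries. The exact interval of the ratio lay above 0 in 6 clusters in Foxp3CNS1- and 7 in Foxp3GFP.

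Cxcr6 was highest in cluster 5 in all 4 libraries among clusters with at least 100000 UMIs, at 111 CPM in colonized and 54.1 in germ-free Foxp3CNS1- mice, and 96.7 in colonized and 48.5 in germ-free Foxp3GFP mice. The small cluster 9, whose 84 cells are led by the follicular helper genes Sostdc1, Il4 and Pdcd1, had more, at 121 CPM in the colonized Foxp3CNS1- library, 74.5 in the germ-free Foxp3CNS1- library, 104 in the colonized Foxp3GFP library and 165 in the germ-free Foxp3GFP library, while Ccr2 was at 0 UMIs there in every library. These Cxcr6 levels rest on 30 UMIs in all. Every library held under 100000 UMIs in cluster 9, so a Ccr2 count of 0 sets only a loose limit. Cxcr6 differed by genotype in the Treg-marked cluster 6, with 25.8 CPM in the colonized Foxp3CNS1- library, 41.2 in the germ-free Foxp3CNS1- library, 3.22 in the colonized Foxp3GFP library and 5.62 in the germ-free Foxp3GFP library. Both Foxp3CNS1- values there stand above both Foxp3GFP values. In cluster 0 it had 29.1 CPM in the colonized Foxp3CNS1- library, 49.5 in the germ-free Foxp3CNS1- library, 14.6 in the colonized Foxp3GFP library and 20.5 in the germ-free Foxp3GFP library. Foxp3CNS1- cells had more Cxcr6 in 9 of 10 clusters of germ-free mice and 10 of 10 clusters of colonized mice. The exact interval of the ratio lay above 0 in only 5 of those clusters in germ-free and 2 in colonized mice.

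Cxcr3 and Ccr4 both had their highest mean levels in clusters 3 and 5. Cxcr3 averaged 104 ± 22.8 CPM in cluster 3 and 98.4 ± 21.2 in cluster 5, whose ranges overlap, and 54.2 ± 6.61 in cluster 0, whose range lies below that of cluster 5 (SD, n = 4 libraries). Ccr4 averaged 34.0 ± 5.21 CPM in cluster 3, 25.8 ± 7.24 in cluster 5 and 22.6 ± 2.58 in cluster 8 (SD, n = 4 libraries). Those 3 ranges overlap between neighbours, while cluster 0 lay below cluster 8 in every library. Cluster 3 is led by Epcam, Serpina3g and Tnfrsf9. Cxcr4 had few UMIs, 358 in all analysed cells, and no cluster led in all libraries. It was highest in cluster 8 in colonized Foxp3CNS1-, in cluster 3 in germ-free Foxp3CNS1- and in cluster 7 in both Foxp3GFP libraries, leaving cluster 9 aside. Cxcr4 reached 33.8 CPM in cluster 7 of germ-free Foxp3GFP, where the other libraries had 11.1 to 11.6 CPM.

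**Figure D3:**
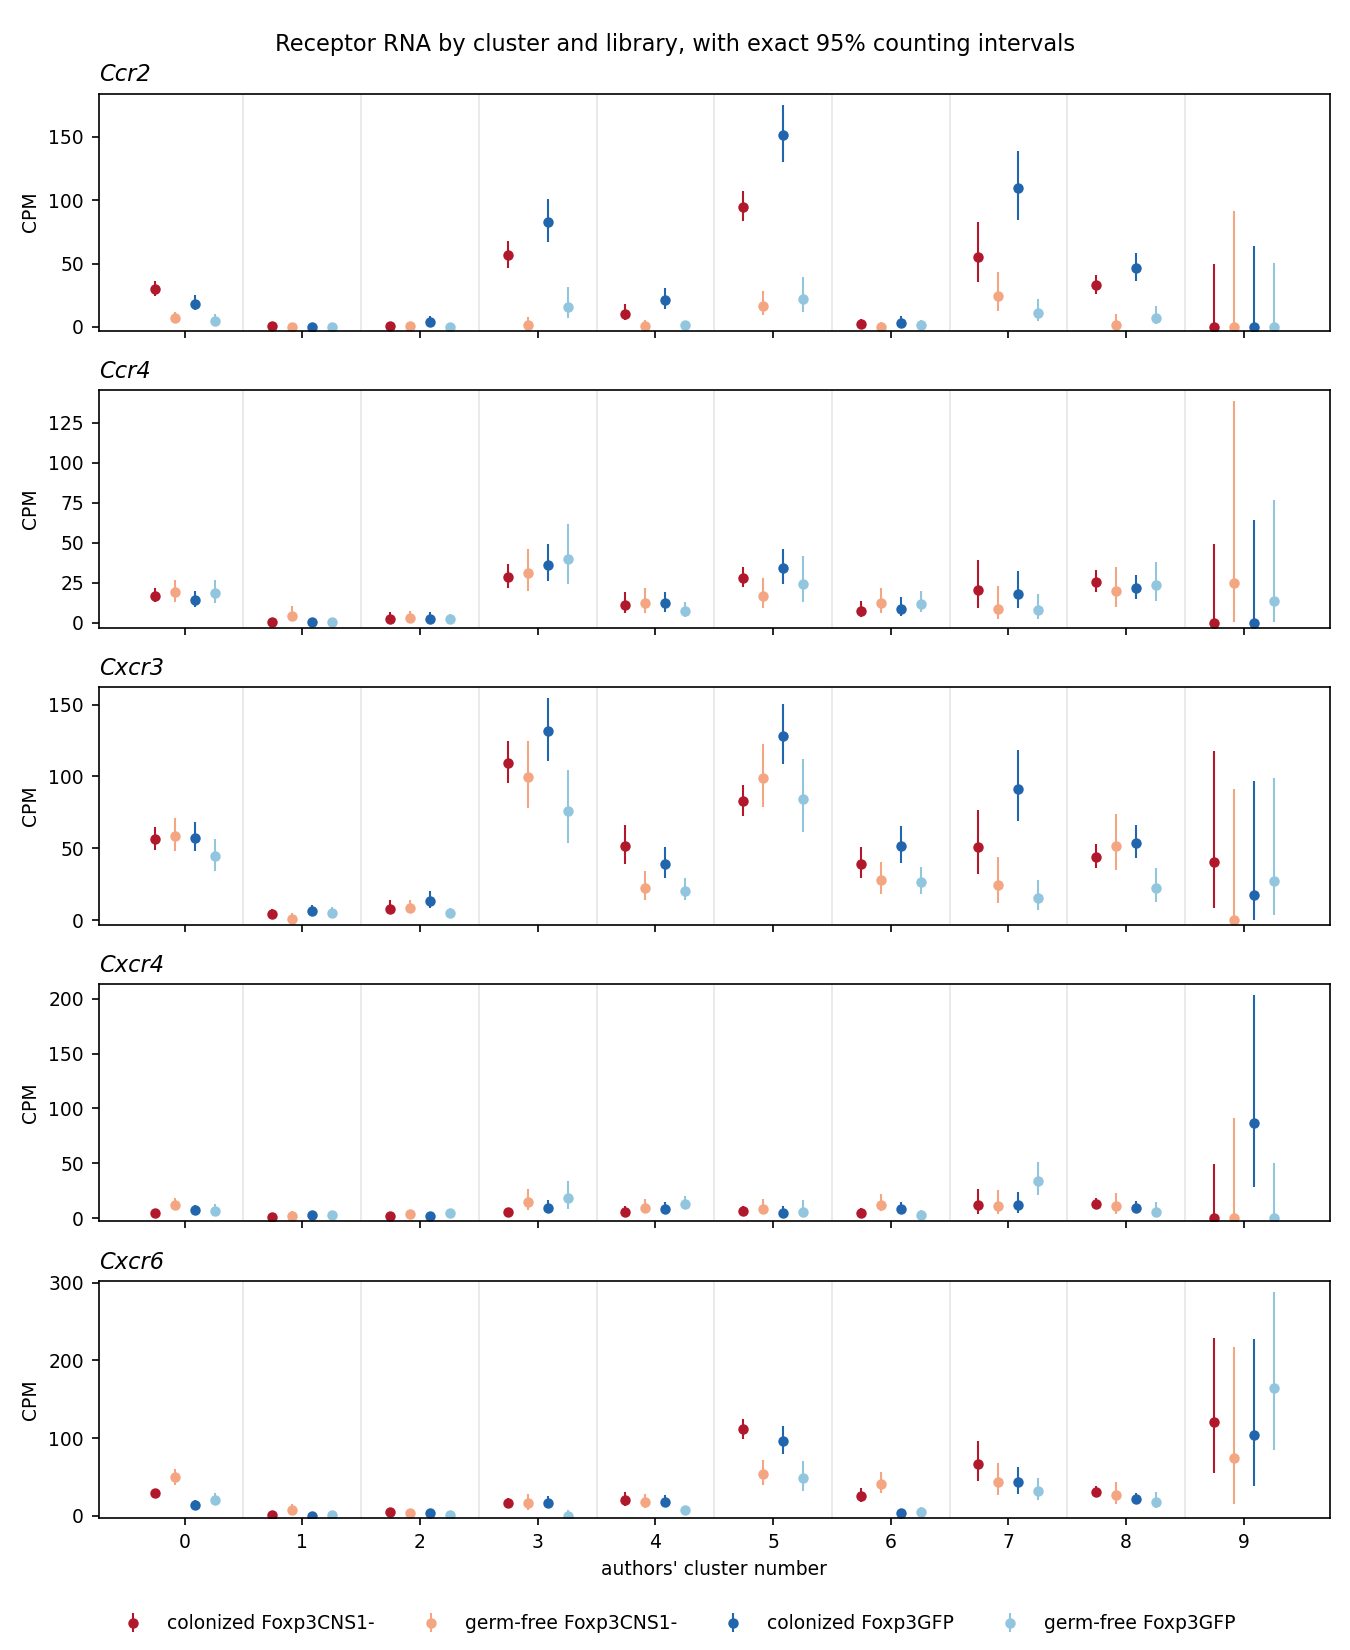
CPM of each receptor in clusters 0 to 9 of each library, with exact 95% counting intervals as bars. Both colonized libraries lie above both germ-free ones for Ccr2 in clusters 0, 3, 4, 5, 7 and 8, and Cxcr6 in clusters 0 and 6 is higher in the Foxp3CNS1- libraries.

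The authors' second clustering, with subsets s0 to s9, separated Ccr2 further. Subset s4 (884 cells) had Ccr2 at 178 CPM in colonized and 26.9 in germ-free Foxp3CNS1- mice, and 238 in colonized and 43.2 in germ-free Foxp3GFP mice. Over all libraries s4 had Foxp3 at 197 CPM and the cytotoxic protease gene Gzmb at 287 CPM. By library, Gzmb was at 258 CPM in colonized and 34.2 in germ-free Foxp3CNS1- mice, and 646 in colonized and 13.0 in germ-free Foxp3GFP mice. Cxcr3 in s4 was at 124 CPM in the colonized Foxp3CNS1- library, 139 in the germ-free Foxp3CNS1- library, 200.3 in the colonized Foxp3GFP library and 164 in the germ-free Foxp3GFP library. Subset s7 (332 cells) had Ccr2 at 194 CPM in colonized and 25.4 in germ-free Foxp3CNS1- mice, and 266 in colonized and 23.6 in germ-free Foxp3GFP mice, and Cxcr6 at 293 CPM in colonized and 20.3 in germ-free Foxp3CNS1- mice, and 288 in colonized and 106 in germ-free Foxp3GFP mice. The germ-free values of s7 rest on few receptor counts. They come from 76 Foxp3CNS1- cells with 196923 UMIs and 30 Foxp3GFP cells with 84857 UMIs. In s7 the members Ccr2 and Cxcr6 were both high after colonization, next to S100a4 at 372 CPM and Gzmb at 367 CPM over all libraries. Gzmb in s7 was at 465 CPM in colonized and 0 in germ-free Foxp3CNS1- mice, and 525 in colonized and 0 in germ-free Foxp3GFP mice. S100a4 in s7 was at 368 CPM in colonized and 86.3 in germ-free Foxp3CNS1- mice, and 634 in colonized and 212 in germ-free Foxp3GFP mice. The same subset had the myeloid gene Lyz2 at 491 CPM, of which 538 UMIs came from 9 cells of the colonized Foxp3CNS1- library. Without cells carrying a UMI of a measured myeloid or dendritic marker, Ccr2 in s7 was 192 CPM in colonized against 26.4 in germ-free Foxp3CNS1- cells. In Foxp3GFP cells it was 268 CPM in colonized against 23.6 in germ-free ones. Subset s5 (632 cells), with Sostdc1 at 352, Il4 at 100.3 and Cxcr5 at 130 CPM and little Foxp3 (17.9 CPM), had Cxcr6 at 40.8 CPM in colonized and 83.2 in germ-free Foxp3CNS1- mice, and 34.7 in colonized and 90.3 in germ-free Foxp3GFP mice. In s5 Cxcr6 was thus lower after colonization in both genotypes. The other genes given for s5 are values over all libraries. Of these, Il4 was at 51.8 CPM in colonized and 212 in germ-free Foxp3CNS1- mice, and 48.6 in colonized and 175 in germ-free Foxp3GFP mice. Sostdc1 was at 118 CPM in colonized and 666 in germ-free Foxp3CNS1- mice, and 234 in colonized and 791 in germ-free Foxp3GFP mice. Cxcr5 differed less. The genes set beside the subsets were picked after their values were seen.

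Foxp3 UMIs give a contrast inside every library, so it could be tested with the library as a block. A Foxp3 UMI was found in 1074, 564, 844 and 636 cells of colonized Foxp3CNS1-, germ-free Foxp3CNS1-, colonized Foxp3GFP and germ-free Foxp3GFP, which is 19.9%, 16.0%, 20.9% and 16.0%. The sort held 50% GFP-positive cells, so cells without a Foxp3 UMI include Foxp3-expressing ones. Counts were summed per library and state and tested with edgeR's quasi-likelihood test, with Benjamini-Hochberg adjustment over all genes and Foxp3 itself left out. The 4 libraries are of different groups. The test shares dispersion across genes, so its p-values and SEs do not measure the spread of a single receptor over groups. That spread is read from the values by library. Of the 5 members 3 rose and 1 fell in cells with a Foxp3 UMI, where 9.9% of 10783 genes rose and 8.37% fell.

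Ccr4 had 26.6 CPM with against 14.0 without a Foxp3 UMI in colonized Foxp3CNS1-, 20.7 with against 11.5 without in germ-free Foxp3CNS1-, 21.6 with against 12.1 without in colonized Foxp3GFP, and 22.7 with against 7.99 without in germ-free Foxp3GFP cells. It was higher with a Foxp3 UMI in 4 of 4 libraries, by a log2 difference of 0.93 ± 0.13 (SE; adjusted p = 2.47e-06). Cxcr3 had 73.8 CPM with against 45.8 without a Foxp3 UMI in colonized Foxp3CNS1-, 54.9 with against 36.1 without in germ-free Foxp3CNS1-, 75.8 with against 47.2 without in colonized Foxp3GFP, and 41.8 with against 20.2 without in germ-free Foxp3GFP cells. It was likewise higher in 4 of 4 libraries, by 0.67 ± 0.082 (SE; adjusted p = 3.12e-07). Ccr2 had 65.1 CPM with against 25.8 without a Foxp3 UMI in colonized Foxp3CNS1-, 2.36 with against 4.96 without in germ-free Foxp3CNS1-, 79.9 with against 23.5 without in colonized Foxp3GFP, and 8.57 with against 2.97 without in germ-free Foxp3GFP cells. It was higher in 3 of 4 libraries, by 1.39 ± 0.14 (SE; adjusted p = 6.21e-09), and the germ-free Foxp3CNS1- library, with 4 UMIs in cells with a Foxp3 UMI, went the other way. DESeq2 gave Ccr2 a log2 difference of 0.99 with adjusted p = 0.39, and edgeR without the library block gave adjusted p = 0.29, in a range of 1.98e-21 to 0.390 over 9 alternatives. Cxcr6 had 14.1 CPM with against 40.7 without a Foxp3 UMI in colonized Foxp3CNS1-, 13.0 with against 31.0 without in germ-free Foxp3CNS1-, 13.3 with against 22.2 without in colonized Foxp3GFP, and 6.05 with against 12.9 without in germ-free Foxp3GFP cells. It was lower with a Foxp3 UMI in 4 of 4 libraries, by -1.26 ± 0.14 (SE; adjusted p = 3.18e-08). Without the library block the adjusted p was 0.053 for Cxcr6 and 0.13 for Cxcr3, in ranges of 3.20e-15 to 0.0532 and 6.45e-11 to 0.127 over 9 alternatives each. Cxcr4 did not pass the test, at -0.36 ± 0.22 (SE; adjusted p = 0.295). Over libraries, median depth was 2324.5 to 3040 UMIs in cells with a Foxp3 UMI and 2282 to 2781.5 UMIs in cells without.

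The same contrast was run inside 2 sets of clusters. In clusters 0, 3 and 6 3.02% of 9398 genes rose and 2.38% fell, and of the 5 members 2 rose and 1 fell. Cxcr6 was again lower in 4 of 4 libraries, with 13.6 CPM with against 30.6 without a Foxp3 UMI in colonized Foxp3CNS1-, 15.7 with against 50.1 without in germ-free Foxp3CNS1-, 2.86 with against 17.8 without in colonized Foxp3GFP, and 5.46 with against 14.7 without in germ-free Foxp3GFP cells, a log2 difference of -1.52 ± 0.19 (SE; adjusted p = 1.27e-09). Its adjusted p was 0.11 without the library block, in a range of 5.37e-14 to 0.109 over 9 alternatives. Ccr2 rose by 0.92 ± 0.17 (SE; adjusted p = 2.65e-05), with 2 of 4 libraries higher, both colonized. For Ccr2 the adjusted p was 0.15 without the colonized Foxp3CNS1- library, 0.69 without the library block and 0.9996 with DESeq2, in a range of 4.37e-07 to 0.9996 over 9 alternatives. Ccr4 rose by 0.51 ± 0.16 (SE; adjusted p = 0.0442) with 4 of 4 libraries higher, a call that was lost without a filter on low counts (adjusted p = 0.0584) and without any one of the libraries other than colonized Foxp3GFP. Its adjusted p ranged over 0.0471 to 0.9996 in 9 alternatives. Cxcr3 gave 0.16 ± 0.094 (SE; adjusted p = 0.433) and Cxcr4 -0.59 ± 0.29 (SE; adjusted p = 0.306).

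In cluster 5 3.41% of 5869 genes rose and 2.35% fell. Of 4 members tested 1 rose and 1 fell, and Cxcr4 had too few counts. Cxcr6 had 18.0 CPM with against 132 without a Foxp3 UMI in colonized Foxp3CNS1-, 7.38 with against 63.2 without in germ-free Foxp3CNS1-, 39.5 with against 116 without in colonized Foxp3GFP, and 0 with against 57.1 without in germ-free Foxp3GFP cells. It was lower with a Foxp3 UMI in 4 of 4 libraries, by -2.35 ± 0.26 (SE; adjusted p = 1.31e-11). Ccr2 had 152 CPM with against 82.5 without a Foxp3 UMI in colonized Foxp3CNS1-, 14.8 with against 17.2 without in germ-free Foxp3CNS1-, 273 with against 111 without in colonized Foxp3GFP, and 12.4 with against 24.2 without in germ-free Foxp3GFP cells, a log2 difference of 1.02 ± 0.17 (SE; adjusted p = 2.61e-06) with only the 2 colonized libraries higher. Ccr2 had an adjusted p of 0.74 with DESeq2 and 0.24 without the library block, in a range of 1.10e-07 to 0.744 over 9 alternatives. Ccr4 gave 0.78 ± 0.31 (SE; adjusted p = 0.149), with the colonized Foxp3CNS1- library alone lower, and 1.51 (adjusted p = 0.0177) without that library, in a range of 0.0177 to 0.920 over 9 alternatives. Cxcr3 gave 0.17 ± 0.17 (SE; adjusted p = 0.738).

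**Figure D4:**
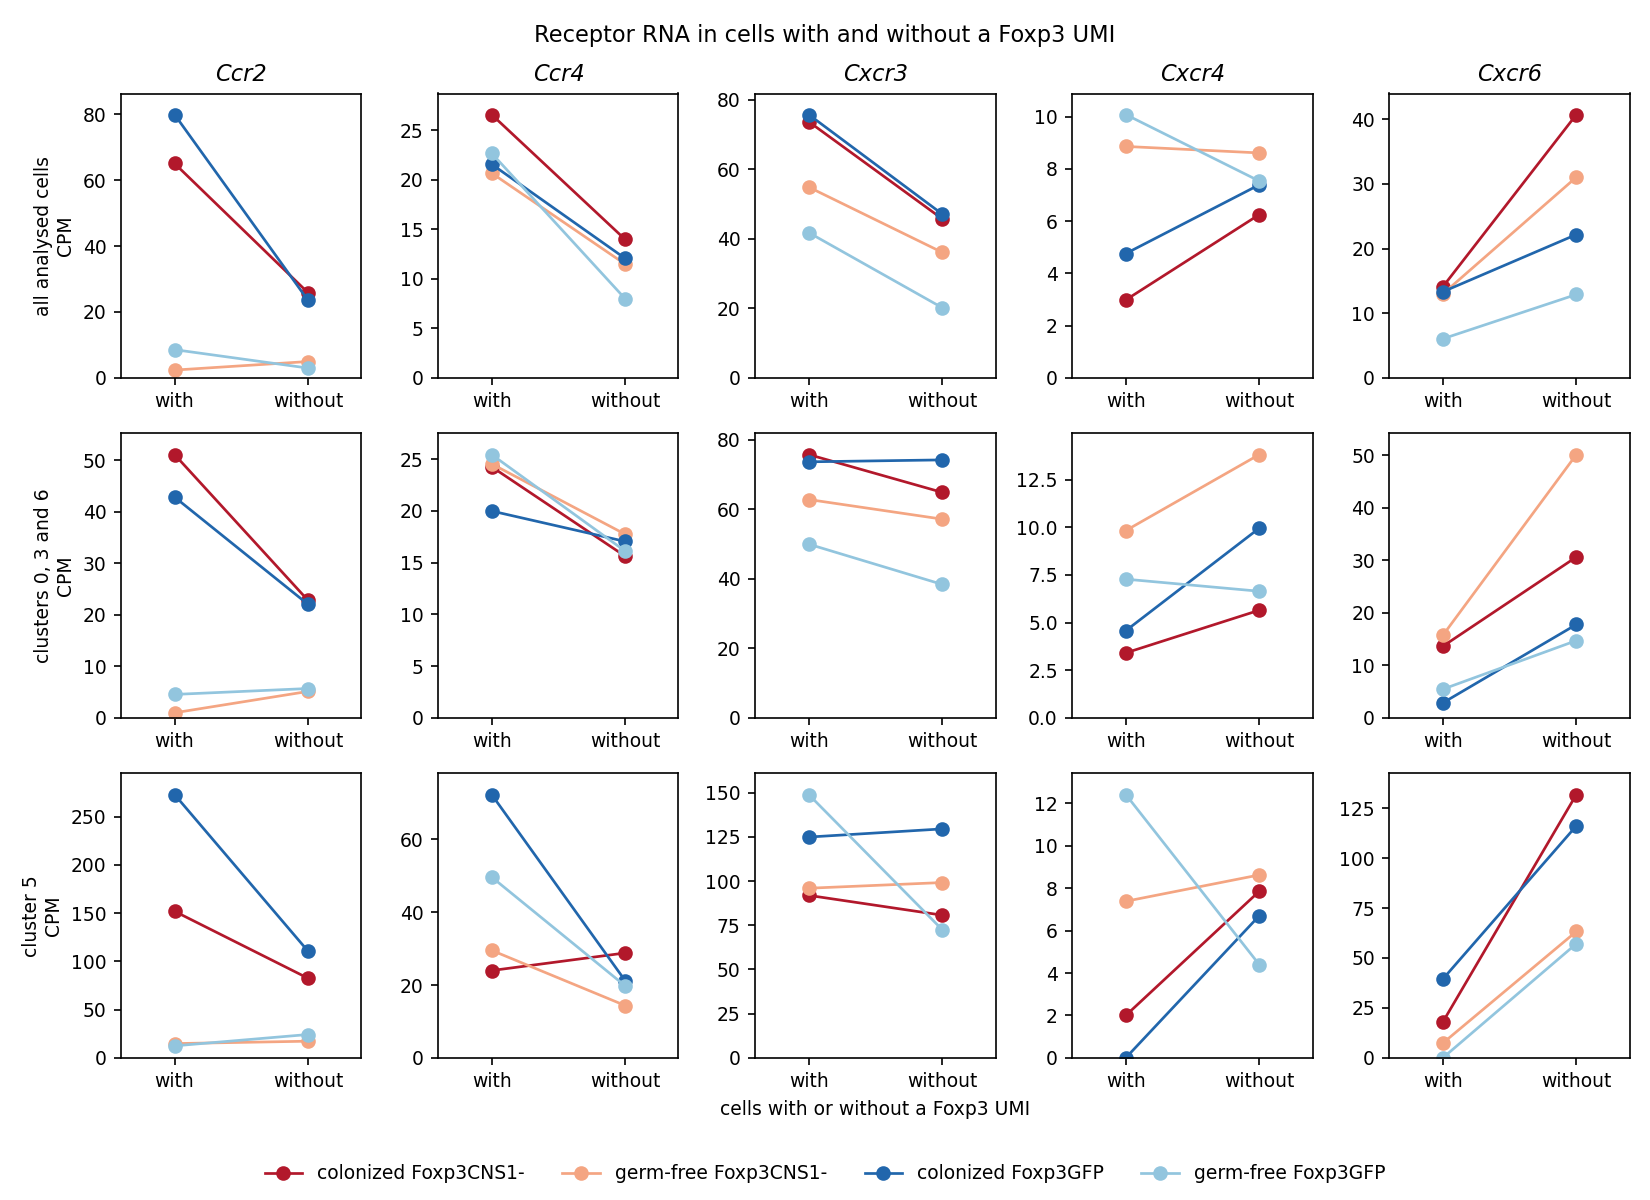
CPM of each receptor in cells with and without a Foxp3 UMI, with a line for each library, in all analysed cells, in clusters 0, 3 and 6 and in cluster 5. Cxcr6 is lower with a Foxp3 UMI in all 4 libraries in each row, and Ccr4 is higher in all 4 in the upper pair of rows.

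Colonization went with more Ccr2 in cells with and without a Foxp3 UMI. In cells with a Foxp3 UMI there were 240 Ccr2 UMIs in colonized against 4 in germ-free Foxp3CNS1- cells, a log2 ratio of 4.78 (3.41 to 6.67), with rank 2 of 7199. In Foxp3GFP there were 252 in colonized against 17 in germ-free cells, a ratio of 3.22 (2.51 to 4.02), with rank 7 of 7076. Of all genes, 3.94% in Foxp3CNS1- and 5.1% in Foxp3GFP were at least 1.5-fold higher in those cells. Of the members with at least 50 UMIs there, Ccr2 passed that fold in Foxp3CNS1-, and Ccr2, Cxcr3 at 0.86 (0.49 to 1.24) and Cxcr6 at 1.14 (0.19 to 2.20) passed it in Foxp3GFP. In cells without a Foxp3 UMI the Ccr2 ratio was 2.38 (1.90 to 2.90) in Foxp3CNS1- and 2.99 (2.40 to 3.63) in Foxp3GFP.

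In clusters 0, 3 and 6 Ccr2 had 32.4 CPM in colonized and 3.94 in germ-free Foxp3CNS1- mice, and 30.0 in colonized and 5.30 in germ-free Foxp3GFP mice, with ratios of 3.04 (2.26 to 3.93) and 2.50 (1.77 to 3.32). Cxcr6 there had 24.9 CPM in the colonized Foxp3CNS1- library, 40.3 in the germ-free Foxp3CNS1- library, 12 in the colonized Foxp3GFP library and 11.5 in the germ-free Foxp3GFP library. Its genotype ratio was 1.80 (1.27 to 2.37) in germ-free mice, with rank 9 of 7916, and 1.05 (0.60 to 1.51) in colonized mice, with rank 23 of 8800. Cxcr6 was lower in colonized than in germ-free Foxp3CNS1- cells of these clusters, at -0.69 (-1.02 to -0.36), and the ratio in Foxp3GFP was 0.063 (-0.56 to 0.71). Cxcr4 was also lower in colonized Foxp3CNS1- cells there, with 34 against 45 UMIs in germ-free ones, a ratio of -1.37 (-2.06 to -0.70).

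Cluster 5 differed from that for Cxcr6, which was higher in colonized mice at 1.04 (0.59 to 1.53) in Foxp3CNS1- and 0.99 (0.37 to 1.67) in Foxp3GFP. The genotype ratio of Cxcr6 in cluster 5 was 0.16 (-0.57 to 0.91) for germ-free and 0.20 (-0.11 to 0.52) in colonized mice, and both intervals hold 0. The colonization ratio of Ccr2 in cluster 5 was 2.49 (1.72 to 3.39) in Foxp3CNS1- and 2.76 (1.92 to 3.74) in Foxp3GFP. Among colonized mice, cluster 5 cells of Foxp3CNS1- had less Ccr2 than those of Foxp3GFP, at -0.68 (-0.95 to -0.40), and less Cxcr3, at -0.63 (-0.93 to -0.33). Myeloid or dendritic markers summed to 149 CPM in cluster 5, with Itgam at 0. Leaving out the cells that carried them, Ccr2 in cluster 5 was 93.2 CPM in colonized against 17.4 in germ-free Foxp3CNS1- and 153 in colonized against 20.9 in germ-free Foxp3GFP cells.

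Most cells had a UMI of none of the receptors. No member was seen in 14184 cells (83.7%), 1 in 2203, 2 in 438, 3 in 112, 4 in 10 and all 5 in 1 cell. Ccr2 and Cxcr6 were often seen together. Of 511 cells with a Ccr2 UMI, 155 (30.3%) had a Cxcr6 UMI, against 2.61% of cells without a Ccr2 UMI, and after thinning the shares were 18.9% and 1.87%. Split by library, 35.9% of Ccr2 cells against 2.72% of the others had Cxcr6 in colonized Foxp3CNS1- mice, and 15.4% against 4.45% in germ-free Foxp3CNS1- mice. The same shares were 28.4% against 1.56% in colonized Foxp3GFP and 9.38% against 1.85% in germ-free Foxp3GFP mice. Co-detection was above that of the other cells in each library. Cxcr3 was found in 32.1% of Ccr2 cells against 7.55% of others (20.3% against 4.75% after thinning), Ccr4 in 16.4% against 3.35% and Cxcr4 in 2.54% against 1.90%.

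Cells with both a Ccr2 and a Cxcr6 UMI came mostly from colonized mice. They numbered 93 in colonized against 4 in germ-free Foxp3CNS1- mice and 55 in colonized against 3 in germ-free Foxp3GFP mice. They made up 39.9% of the Cxcr6 cells of colonized Foxp3CNS1- mice against 2.50% in germ-free ones, and 47.8% in colonized Foxp3GFP mice against 3.95% in germ-free ones. These cells carried 52.5% of all Cxcr6 UMIs in colonized against 2.69% in germ-free Foxp3CNS1- mice, and 63.0% in colonized against 2.40% in germ-free Foxp3GFP mice. Of the 155 cells 49.7% were in cluster 5 and 19.4% had a Foxp3 UMI. Their median depth was 4301 UMIs, above that of all cells, and the part of pairs of cells in 1 droplet was not tested.

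**Figure D5:**
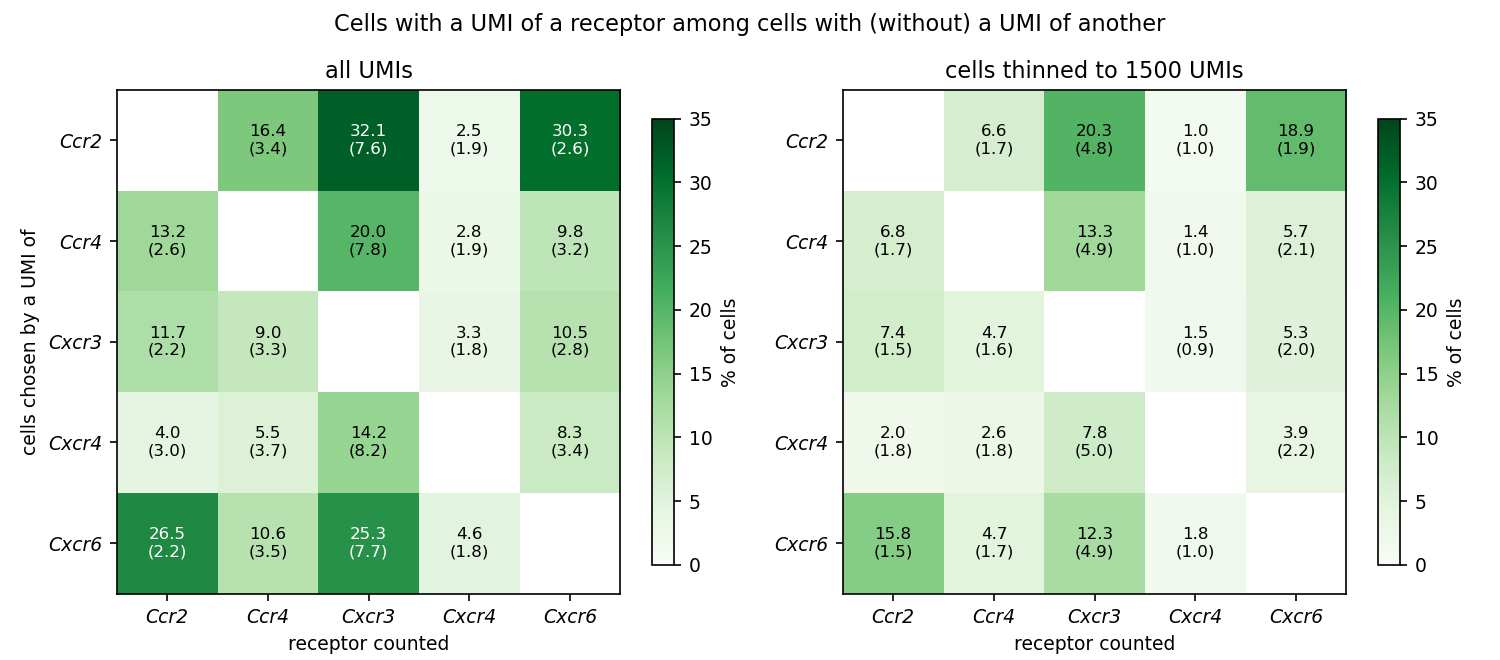
Share of cells with a UMI of one receptor among cells with and without a UMI of another, as a grid shaded by percent of cells, over all UMIs on the left and after thinning to 1500 UMIs on the right. Rows give the receptor whose UMI chose the cells, columns the receptor counted, and the share among cells without the UMI is in brackets. Cxcr6 stands at 30.3% among cells with a Ccr2 UMI and 2.61% among those without, the widest gap on the left grid.

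Other genes were counted in cells with a receptor UMI, and were picked after values were seen. Such cells were deeper, with medians of 3529 against 2562 UMIs for Ccr2 and 3315 against 2564 for Cxcr6, and a UMI of the T-cell gene Cd3e was present in 78.5% against 63.1% and 75.2% against 63.2%. A Foxp3 UMI was present in 38.4% of Ccr2 cells against 17.8% of others, Gzmb in 34.6% against 1.71%, S100a4 in 35.2% against 3.36% and the integrin gene Itgae in 38.6% against 10.3%. With cells thinned to 1500 UMIs these shares were 23.1% against 11.1% for Foxp3, 28.0% against 1.5% for Gzmb, 23.4% against 2.33% for S100a4 and 23.8% against 6.42% for Itgae, beside 52.1% against 44.1% for Cd3e. Gzmb was found in 35.5% of Ccr2 cells of colonized against 7.69% of germ-free Foxp3CNS1- mice, and in 41.2% of colonized against 9.38% of germ-free Foxp3GFP mice. The germ-free shares rest on 26 Foxp3CNS1- and 32 Foxp3GFP cells. Cells without a Ccr2 UMI differed too, with Gzmb in 2.76% of colonized against 0.456% of germ-free Foxp3CNS1- cells. In Foxp3GFP these shares were 2.95% in colonized against 0.253% in germ-free cells. Cxcr6 cells had Foxp3 in 11.5% against 18.6% of others, and Gata3, a Th2 and Treg factor, in 37.0% against 15.1%. After thinning the shares were 3.22% against 11.5% for Foxp3 and 22.2% against 8.73% for Gata3. In clusters 0, 3 and 6 a UMI of the Th2 and follicular helper cytokine Il4 was found in 18.8% of Cxcr6 cells against 2.79% of other cells in colonized Foxp3CNS1- mice, and in 33.3% against 9.74% in germ-free Foxp3CNS1- mice. In Foxp3GFP mice the shares were 15.6% against 2.09% in colonized and 32.1% against 2.06% in germ-free ones. After thinning, Il4 was found in 23.1% of Cxcr6 cells against 2.80% of others in these clusters. The shares by library rest on 80, 87, 32 and 28 Cxcr6 cells of colonized Foxp3CNS1-, germ-free Foxp3CNS1-, colonized Foxp3GFP and germ-free Foxp3GFP.

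Likeness of pattern was measured as Pearson correlation of log2(CPM + 5) over 36 sums of a cluster and a library, which share libraries, depth and clusters built from the same genes. Over 9196 genes, Ccr2 was most like Med10, S100a4 and Gzmb (all 0.87), Ccr4 most like Timp2 (0.96), Srgn and Ctsb (both 0.95), and Cxcr3 most like Capg, Pkp3 and Icos (all 0.94). Cxcr6 was most like Evi2a (0.87), Gng2 (0.86) and Akap12 (0.84), and Cxcr4 most like Hnrnpul1 (0.84), Ssr1 (0.81) and Ythdf2 (0.77). Among the members Ccr4 and Cxcr3 were most alike (0.89), and Ccr2 and Cxcr4 least (0.29).

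Of 18 other chemokine receptors 14 were in the table, and 7 had at least 50 UMIs in each colonization comparison. In both genotypes 4 of these 7 were higher and 3 lower in colonized mice, with a median log2 ratio of 0.25 in Foxp3CNS1- and 0.30 in Foxp3GFP, beside -0.036 and -0.013 over all genes. Ccr6, a Th17 receptor, was at 1.11 (0.78 to 1.46) in Foxp3CNS1- and 0.79 (0.47 to 1.12) in Foxp3GFP. The gut-homing receptor Ccr9 was lower, at -0.61 (-0.78 to -0.44) and -0.32 (-0.51 to -0.14). Ccr7 of naive cells was at -0.064 (-0.14 to 0.014) and -0.0052 (-0.080 to 0.069), both intervals holding 0. By genotype 0 of 7 passed 1.5-fold in either state, where 2.92% of all genes were higher and 1.24% lower in germ-free and 1.77% and 1.27% in colonized mice. Of the genes of receptor signalling 7 of 22 were higher in colonized Foxp3CNS1- and 5 of 21 in colonized Foxp3GFP mice, and of the regulators 8 of 14 and 7 of 14. Higher in these list counts means a log2 ratio above 0, and the share of all genes above 0 was not counted. Of 12 ligand genes of the members, 3 were in the table, and Cxcl10, a CXCR3 ligand, was at 5.91 CPM in colonized against 6.41 in germ-free Foxp3CNS1- mice and 7.52 in colonized against 6.05 in germ-free Foxp3GFP mice.

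Between cells with and without a Foxp3 UMI, 5 of 9 other receptors tested rose and 1 fell, with a median of 1.15 beside -0.0064 over all 10783 genes. By the same edgeR test Ccr9 rose by 1.23 ± 0.089 (SE; adjusted p = 9.23e-12) and the Treg and Th2 receptor Ccr8 by 1.56 ± 0.28 (SE; adjusted p = 9.59e-05), each higher in 4 of 4 libraries. Ccr7 fell in 4 of 4 libraries, at -0.73 ± 0.047 (SE; adjusted p = 7.83e-13). Of 22 genes of receptor signalling tested 3 rose and 5 fell, beside 9.9% and 8.37% of all genes, among them the negative regulator Rgs1 at 1.04 ± 0.063 (SE; adjusted p = 1.88e-13) and the kinase Grk6, which phosphorylates active receptors, at -0.27 ± 0.061 (SE; adjusted p = 0.00137). Of 15 regulators 6 rose and 5 fell, among them Prdm1, which encodes Blimp1, at 1.17 ± 0.14 (SE; adjusted p = 2.77e-07) and Klf2, which drives exit from lymph nodes, at -0.50 ± 0.039 (SE; adjusted p = 3.29e-11).

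Helper lists were set beside the members. Higher again means a log2 ratio above 0. The share of all genes above 0 was not counted, and the medians over all genes, given above, were just below 0. Of the Th17 genes with at least 50 UMIs 8 of 8 were higher in colonized Foxp3CNS1- and 9 of 9 in colonized Foxp3GFP mice, with medians of 1.81 and 2.33. Il17a had 66 UMIs in colonized against 2 in germ-free Foxp3CNS1- mice and 85 in colonized against 0 in germ-free Foxp3GFP mice. Of the Th1 genes, which include Cxcr3 and Cxcr6, 9 of 10 were higher in Foxp3CNS1- and 8 of 9 in Foxp3GFP, with medians of 0.42 and 0.79. Of the Th2 genes, which include Ccr4, 1 of 6 was higher in Foxp3CNS1- and 1 of 5 in Foxp3GFP, Ccr4 itself in both, with medians of -0.34 and -0.18. Il4 was lower in colonized mice, at -1.70 (-1.94 to -1.46) in Foxp3CNS1- and -0.72 (-1.10 to -0.33) in Foxp3GFP. By genotype Il4 was higher in Foxp3CNS1-, like Cxcr6, at 1.77 (1.48 to 2.06) for germ-free and 0.78 (0.44 to 1.13) in colonized mice. By Foxp3 state 1 of 9 Th17 genes rose and 6 fell, 4 of 12 Th1 genes rose and 2 fell, and 5 of 6 Th2 genes rose and 1 fell (Il4, -2.16 ± 0.22 (SE; adjusted p = 8.21e-09)). The rising Th2 genes were Gata3, Il1rl1, Ccr4, Ccr8 and Il4ra. Of these, Ccr4 is a member counted above, and Gata3, Ccr4 and Ccr8 are also known from Treg cells. Over all genes 9.9% rose and 8.37% fell.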

How the data were processed

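Per the labels' protocols, 4 libraries were made with the 10x 3′ v3 kit, with about 5000 cells targeted a library. Whole-number UMI counts were deposited by the authors, whose tools were Cell Ranger and, per the submitters' processing notes, Scanpy 1.5.1, with mm10 as the build. The sources used here state no Cell Ranger version, filters or handling of doublets, and none was removed as a doublet in the present work. A second deposited table gave library and cluster for 17251 of 17478 cells; the other 227 were not used, and 303 marked as removed by the authors were left out. Of its columns 3 were not used. Annotated cells sharing a barcode between libraries numbered 316.

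UMI counts of each class were added up within a library and expressed as CPM. Ratios need at least 50 UMIs over both libraries, with exact Clopper-Pearson intervals at 95% that cover counting error only, and are called past 1.5-fold. Where a count is 0, its limit is 3 counts. Lists and members were chosen with earlier results of these data known. Genes most like a member were the 3 with the highest correlation among genes detected in at least 1% of cells. Cells with and without a Foxp3 UMI were compared with edgeR 4.0.16 (R 4.3.3), TMM scaling, filterByExpr and the library as a block, at an adjusted p of 0.05. Both states come from the same libraries, and their deviations correlated at 0.36 to 0.45 over libraries. Each SE is the absolute log2 difference divided by the square root of edgeR's F statistic. DESeq2 1.42.0 was an alternative. On simulated counts with 200 genes changed by a fold of 2, the Foxp3 contrast recovered 97% in all cells, 85% in cluster 5 and 97% in clusters 0, 3 and 6. The ratio calculation recovered 93.5% to 97.5%. Genes changed in the Foxp3 simulation had at least 200 UMIs and the same fold in every library. The ratio simulation held counting error only. These recoveries therefore do not cover differences that vary between libraries, and those of the Foxp3 contrast do not cover genes with fewer UMIs.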

Additional observations from a re-analysis of the deposited data

Results flagged for a closer look

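In Foxp3CNS1- mice the colonization ratio of Cxcr6 had opposite signs in 2 cell classes, with a log2 ratio of 1.04 (0.59 to 1.53) in cluster 5 and -0.69 (-1.02 to -0.36) in clusters 0, 3 and 6. The difference, 1.74, was not tested, because each group has 1 library. In Foxp3GFP mice the ratios were 0.99 (0.37 to 1.67) in cluster 5 and 0.063 (-0.56 to 0.71) in clusters 0, 3 and 6.

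The 303 cells that the authors removed enter no comparison, and 3 members had more RNA there than in the analysed cells. Markers of other cell types were higher there too, at 455 against 48.5 CPM for CD8 T or NK cells, 281 against 22.4 CPM for myeloid or dendritic cells and 3099 against 808 CPM for B or plasma cells, and their part in the result was not tested. Of the myeloid or dendritic markers measured, Itgam was at 0 there. Ccr2 had 80.8 CPM in the removed cells, with a range of 41.5 to 114 over libraries, against 23.1 CPM in the analysed cells. Cxcr3 had 181 CPM in the removed cells (166 to 197 over libraries) against 44.3 CPM in the analysed ones, and Cxcr6 had 152 CPM (108 to 192 over libraries) against 25.0. Ccr4 had 8.08 CPM in the removed against 14.1 in the analysed cells, and Cxcr4 11.5 against 6.96, each with an interval of the ratio that holds 0 on the log2 scale.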

How the results depend on the processing

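Of 140 alternative values for the ratios over all analysed cells, 123 lay within the main interval, 16 moved out of it and 1 reversed; within cell classes these counts were 328, 16 and 1 of 345. With the cluster mix fixed, the colonization ratio was 0.17 for Cxcr3, 0.053 for Cxcr6 and -0.028 for Ccr4 (reversed) in Foxp3CNS1-, and 2.66 for Ccr2, 0.040 for Ccr4 and 0.77 for Cxcr3 in Foxp3GFP. The genotype ratio was then 0.32 for Cxcr3 in germ-free mice, and -0.50 for Ccr2, -0.092 for Ccr4, -0.28 for Cxcr3 and 0.50 for Cxcr6 in colonized mice. Thinning gave 0.11 for colonization of Cxcr6 in Foxp3CNS1-, and 0.27 for Ccr2 and 0.56 for Ccr4 by genotype in colonized mice. That Ccr2 ratio, main value -0.12, was 0.12 with equal weight per cell and 0.23 without cells with at least 10 immunoglobulin UMIs; in cells with a Foxp3 UMI the last setting gave 0.024 against a main value of -0.30 (reversed). With the cells the authors removed, colonization of Ccr2 in Foxp3CNS1- was 2.44. Thinning gave ratios of shares of 3.92 for Ccr2 with over without Ccr4, 10.4 for Ccr2 with over without Cxcr6 and 2.52 for Cxcr3 with over without Cxcr6. The setting without cells carrying a myeloid or dendritic UMI, and thinning for the other genes of Ccr2 and Cxcr6 cells, were chosen after seeing the data. The cause was not tested for any of these.

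In the Foxp3 contrast 108 of 126 alternatives for the members kept direction and side of the threshold and none reversed. With DESeq2, Ccr2 had a log2 difference of 0.99 in all cells, 0.77 in cluster 5 and 0.25 in clusters 0, 3 and 6, and Ccr4 had 0.51 in clusters 0, 3 and 6, none past the threshold. With no replicate block, the differences in all cells were 1.47 for Ccr2, 0.69 for Cxcr3 and -1.21 for Cxcr6. The same fit gave 1.18 for Ccr2 in cluster 5, and 0.98 for Ccr2, 0.51 for Ccr4 and -1.58 for Cxcr6 in clusters 0, 3 and 6, none past the threshold. Ccr4 in clusters 0, 3 and 6 also missed it at 0.50 with no filter and 0.42 after thinning. Leaving out each library in turn gave 0.64 to 1.02 for Ccr2 and 0.45 to 0.60 for Ccr4 in clusters 0, 3 and 6, and 0.20 to 1.51 for Ccr4 in cluster 5, past the threshold without the colonized Foxp3CNS1- library. In all cells 1067 genes rose and 902 fell, against 528 and 391 with DESeq2, 431 and 280 with no replicate block, and 703 to 1066 and 513 to 856 without each library, lowest without colonized Foxp3GFP. In cluster 5 200 rose and 138 fell, against 60 and 32 with DESeq2, 116 rising with no filter, 82 and 52 with no replicate block, 81 and 70 after thinning, and 89 to 184 and 62 to 133 without each library, lowest without colonized Foxp3CNS1-. In clusters 0, 3 and 6 284 rose and 224 fell, against 54 and 55 with DESeq2, 28 and 30 with no replicate block, 166 and 115 after thinning, and 170 to 269 and 136 to 209 without each library, lowest without colonized Foxp3CNS1-. By Spearman correlation 1 of the 3 genes most like Ccr2, 3 for Ccr4 and 2 each for Cxcr3, Cxcr4 and Cxcr6 were kept. UMIs limit Cxcr4 most, with 358 in all analysed cells.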
